A study of Mus musculus with 10 samples.

Results

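The genes described here encode the kinetochore, the centromere chromatin beneath it, the spindle checkpoint and the chromosomal passenger complex of the mouse. They were taken by symbol from a list of 37, and all 37 were among the 24544 rows of the deposited count table. The libraries were bulk RNA-seq of long-term hematopoietic stem cells, the bone marrow cells that sustain blood formation. The cells came from mice of the strain Hoxb5-mCherry, a reporter for Hoxb5, at an age of 2 to 3 months. Both groups carried the reporter and passed one gate, namely lineage-negative, cKIT+, SCA1+, CD150+, CD48-, FLK2-, CD34- and Hoxb5+. They differed in surface neogenin-1, which gave 5 NEO1+ libraries and 5 NEO1- libraries. A library held 250 to 500 cells pooled from 2 mice. The labels do not say that the libraries of a group came from separate mice, so p values measure the spread between these libraries, which may be technical. The series title names the question, which is whether neogenin-1 parts myeloid-biased from balanced Hoxb5+ stem cells.

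A kinetochore is the protein assembly that ties a chromosome to spindle microtubules. It is built on nucleosomes that carry CENP-A, the centromeric variant of histone H3, through an inner constitutive network and an outer microtubule-binding layer. The spindle checkpoint delays anaphase until every kinetochore is attached, and the passenger complex with Aurora B releases faulty attachments. Many of these genes are transcribed mainly in late S, G2 and M phase, and long-term stem cells of adult marrow are mostly quiescent. In bulk libraries, fewer dividing cells and less RNA per dividing cell cannot be told apart.

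Total counts per library ran from 21181669 to 38945806, and genes with a count numbered 12800 to 13808 in NEO1+ and 11477 to 13147 in NEO1- libraries. Rn45s, the ribosomal RNA precursor, took 27.9 to 37.7% of counts in NEO1+ and 30.7 to 42.4% in NEO1- libraries. Neo1 was at 64.8, 48.6, 59.6, 12.5 and 52.1 CPM (counts scaled to a common library size, with TMM factors) in NEO1+ libraries 1 to 5 and at 18.9, 11.5, 12.2, 4.56 and 6.15 CPM in NEO1- libraries 1 to 5. The library labelled NEO1+ 4 thus lay within the NEO1- range. Of the gate's markers, Kit was at 392 CPM or more and Ly6a at 145 CPM or more in every library, and Cd48 at no more than 8.69 CPM. Hoxb5 itself was low, at 2.45 to 4.91 CPM in NEO1+ libraries and at 0.223, 2.25, 0, 2.43 and 2.12 CPM in NEO1- libraries 1 to 5. Its groups were parted by a narrow gap, higher in NEO1+ (edgeR adjusted p 0.966), a separation seen in 1.35% of all genes tested. Transcripts of the other markers that the gate excludes were present. Cd34 ranged from 48.6 to 114.6 CPM over the NEO1+ group and from 63.4 to 109.6 CPM over the NEO1- group. Flt3, which encodes FLK2, was at 1.16 to 4.78 CPM in NEO1+ libraries and at 0, 7.68, 0.474, 23.98 and 30 CPM in NEO1- libraries 1 to 5. Marker lists for stem cells, neutrophils and monocytes, erythroid and megakaryocytic cells overlapped between groups in their summed levels. The neutrophil and monocyte sum of 11 genes ran from 160.5 to 4347 CPM in NEO1+ and from 148 to 2713 CPM in NEO1- libraries. Library 3 had the highest sum in each group. Mpo was at 238, 3.15, 724, 263 and 9.03 CPM in NEO1+ libraries 1 to 5 and at 0, 0, 1590, 552 and 0.331 CPM in NEO1- libraries 1 to 5. Ngp was at 706, 0, 1233, 9.22 and 43.1 CPM and at 0, 16.8, 4.51, 49.4 and 318 CPM. Whether such transcripts bear on the members' values was not tested. For 9 erythroid genes the sum ran from 30.2 to 348.5 and from 28.9 to 222 CPM in the same order, with Hba-a2, Hbb-bs and Hbb-bt at 0 throughout.

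The members' transcripts were detected more fully in NEO1+ libraries. All 37 had 1 count or more in each of the 5 NEO1+ libraries, whereas 27, 26, 27, 36 and 30 did in NEO1- libraries 1 to 5, a mean of 29.2 ± 4.09 (SD, n = 5). Of the 185 values of the NEO1- group, 39 were 0. NEO1- libraries 1, 2 and 3 each had 10 or 11 members at 0, and NEO1- library 4 had 1. A count of 0 allows up to 3 counts, or 0.0912 to 0.141 CPM in the NEO1- libraries, and as PCR copies were not marked this limit covers counting error only. The NEO1- mean was 28.6 when more than 3 counts were required, and 29.2 when all libraries were thinned to the smallest total. Without NEO1- library 4 it was 27.5, an alternative chosen after seeing the data.

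Detection of genes in general moved the same way. Of the 12203 genes tested, 97.3 to 99.3% were detected in NEO1+ libraries, and 90.2, 93.6, 91.1, 98.2 and 95.4% in NEO1- libraries 1 to 5. Among the 36 members tested, 10 had 2 or more NEO1- libraries at 0 and no NEO1+ library at 0, against 4.75% of all genes tested. The opposite pattern was seen in 0 members, against 0.131% of genes.

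**Figure D1:**
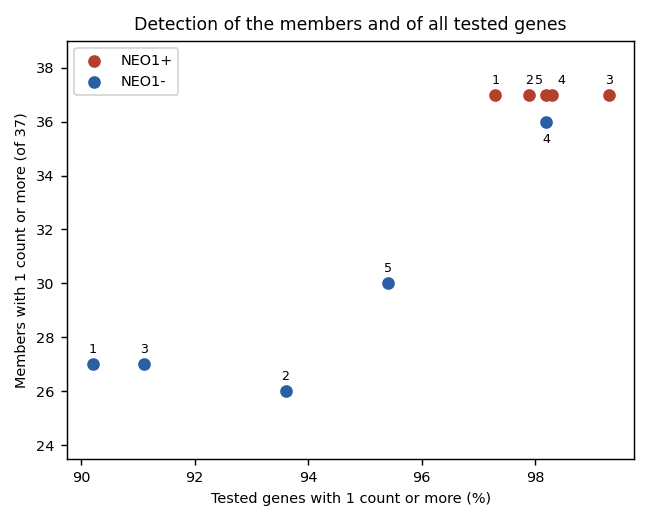
Members detected in each library (vertical axis, number of 37) against the share of tested genes detected there (horizontal axis, %), with 1 numbered point per library. The 5 NEO1+ libraries sit at 37 members, NEO1- library 4 at 36, and the other NEO1- libraries between 26 and 30.

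No single member passed the test, while nearly all had a higher mean in NEO1+ cells. With edgeR's quasi-likelihood test and Benjamini-Hochberg adjustment over all genes, 0 of 36 members had an adjusted p under 0.05, against 0% of all genes tested. Neo1, whose product parted the groups in the sort, did not pass either (log2 fold change 2.16, SE 0.47, edgeR adjusted p 0.248). A member that did not pass is therefore not shown to be equal between groups. At an unadjusted p under 0.05, 7 members were higher in NEO1+, against 3.11% of all genes, and 0 were lower, against 3.49%. These were Cenpa, Dsn1, Bub1, Mad2l1, Birc5, Incenp and Aurkb. Of the 36 fitted log2 fold changes 33 were positive, against 51% of all genes, and their median was 0.76 beside 0.01 for all genes. The 3 negative values were those of Cenpl (-0.01), Cenpt (-0.13) and Oip5 (-0.27). DESeq2 called 1 of 37 members higher, Cenpi, against 0.616% of genes, and 0 lower, against 0.383%.

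The count of 7 was 4 without NEO1+ library 1, against 2.59% of genes, and 4 without NEO1+ library 3, against 2.27%. Without NEO1+ library 4, whose Neo1 level lay in the NEO1- range, it was 5, against 2.65% of genes, and the median was 0.69. With the genes detected per library added as a covariate it was 2, against 1.36% of genes. In that fit 29 of 36 log2 fold changes were positive with a median of 0.75. The shifts went both ways. There Aurkb had a log2 fold change of 0.84 in place of 3.02, Bub1b 0.77 in place of 2.33 and Dsn1 0.49 in place of 1.37. Bub1 was at 3.54 in place of 4.01 and Ttk at 2.70 in place of 3.17. Cenpf rose to 5.50 from 2.10, and Cdca8 to 2.03 from 1.77. Beyond this fit, the part that lower detection in general has in the members' values was not tested.

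The groups did not overlap for 6 members, Cenpi, Dsn1, Bub1b, Ttk, Incenp and Aurkb, each higher in NEO1+. For Cenpi this rests on a single count in NEO1+ library 4, at 0.0304 CPM, which is below the 3 counts that a 0 in a NEO1- library allows, so its separation is not established at this depth. On build GRCm38.p6 their genes lie at chr2:156995062-157007075 (Dsn1), chr2:118598202-118641592 (Bub1b), chr9:83834651-83872390 (Ttk), chr19:9872295-9899489 (Incenp), chr11:69045624-69051664 (Aurkb) and chrX:134308084-134363104 (Cenpi). Of these 5 were among the 36 tested, and 1.35% of all genes tested had the same separation. For the opposite direction there were 0 members, against 1.13% of genes. Within groups the members scattered more in NEO1- libraries, where the coefficient of variation of CPM had a median of 0.71 against 0.42 in NEO1+, and it was higher in NEO1- for 32 members. For all tested genes the medians were 0.41 and 0.27.

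**Figure D2:**
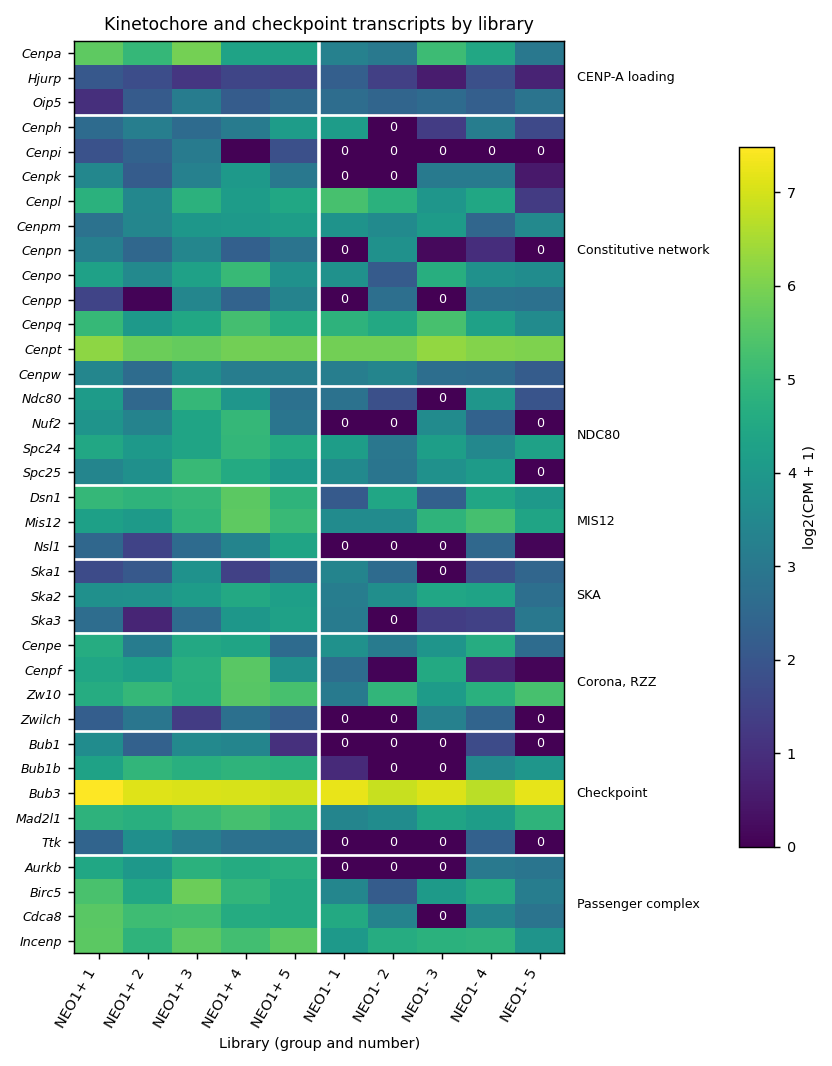
Level of each member (rows, grouped by function) in each library (columns) as log2(CPM + 1) on the colour scale, with 0 written where a library had no count. The zeros lie only in the NEO1- columns, mostly those of libraries 1, 2, 3 and 5, and Bub3 and Cenpt are bright in all 10 columns.

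Promoters of the members were examined because cell cycle genes of late phases often carry a CHR element, bound by the DREAM and B-MYB complexes, and boxes for the factor NF-Y. RefSeq promoter sequences of build GRCm38.p6 (the assembly of mm10) matched 31 of 37 members. Searched on both strands of the 250 bases upstream of each start, the CHR letters TTTGAA were present in 6 of 31 members (19.4%) and in 18.3% of 27025 genes, and within 100 bases in 12.9% and 6.76%. The variant TTCGAA was present in 6.45% and 1.55%. The NF-Y letters CCAAT were present in 19 of 31 members (61.3%) and in 37.5% of genes, and in 51.6% and 21.6% within 100 bases. These shares of genes are over all 27025 with a promoter entry, not over the 12203 tested. Shares among the tested genes were not computed. CHR and NF-Y matches can overlap at their ends, and a match is a description of these letters only. Up to 120 bases upstream of the start are shown for the 4 members without overlap that have an entry and for Bub3, whose levels differed little. Each stretch ends where the outermost RefSeq model of the gene begins, which leaves 82 bases for Ttk, 111 for Bub1b and 117 for Bub3. Capitals mark the CHR letters and the NF-Y letters on either strand.
Ttk: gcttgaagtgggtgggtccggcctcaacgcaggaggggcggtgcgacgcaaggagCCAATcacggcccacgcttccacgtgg
Bub1b: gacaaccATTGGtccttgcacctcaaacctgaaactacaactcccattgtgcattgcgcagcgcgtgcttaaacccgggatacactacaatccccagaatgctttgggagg
Dsn1: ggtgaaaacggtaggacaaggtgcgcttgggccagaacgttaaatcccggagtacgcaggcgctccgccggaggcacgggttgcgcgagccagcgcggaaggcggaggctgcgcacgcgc
Cenpi: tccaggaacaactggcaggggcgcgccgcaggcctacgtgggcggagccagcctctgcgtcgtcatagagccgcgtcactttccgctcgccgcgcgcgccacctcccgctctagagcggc
Bub3: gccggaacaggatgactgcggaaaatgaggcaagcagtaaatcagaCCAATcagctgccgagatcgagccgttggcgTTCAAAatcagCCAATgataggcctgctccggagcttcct
They lie at chr9:83834569-83834650, chr2:118598091-118598201, chrX:134307964-134308083 and chr7:131560250-131560366 on the plus strand and at chr2:157007076-157007195 on the minus strand. Ttk has NF-Y matches 65 and 28 bases upstream of the start in the table, the second beyond the stretch shown, and Bub1b has one 113 bases upstream, while the stretches of Dsn1 and Cenpi hold none of the motifs. Bub3, for which the table gives a pair of starts, has a CHR match 43 bases upstream of the first, between NF-Y matches at 74 and 32 bases. The CHR letters also lie 9 bases upstream in Cenpn, 14 in Ska3, 25 in Cenpw and 162 in Cenpl, which are not printed. Zw10 holds them 148 bases upstream, shown here in capitals with the bases around them.
Zw10: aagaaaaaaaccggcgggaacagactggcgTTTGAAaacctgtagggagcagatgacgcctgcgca
This window lies at chr9:49055403-49055468 on the plus strand.

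Genes of the chromosomal passenger complex, which corrects faulty attachments, had higher means in NEO1+ libraries throughout. All 4 fitted log2 fold changes were positive, against 51% of all genes, with a median of 1.62, and 3 had an unadjusted p under 0.05, against 3.11% of all genes called higher. The summed CPM of the complex did not overlap between groups, with 129.5 ± 28.3 for the NEO1+ group and 45.7 ± 13.3 for the NEO1- group (SD, n = 5 each). Incenp, the scaffold that anchors the kinase, stood at 47.2, 28.0, 47.7, 36.5 and 47.4 CPM in NEO1+ libraries 1 to 5 and at 15.2, 23.8, 26.7, 27.9 and 13.5 CPM in NEO1- libraries 1 to 5. The groups were parted by a narrow gap, between NEO1+ library 2 and NEO1- library 4. Its log2 fold change was 0.95 (SE 0.28, edgeR unadjusted p 0.00444, adjusted p 0.463), the smallest p among the members.

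Birc5 encodes survivin, the subunit that binds phosphorylated histone H3 at the centromere. It was at 39.4, 21.3, 54.4, 29.5 and 22.4 CPM in NEO1+ and at 9.80, 3.51, 15.8, 23.2 and 8.07 CPM in NEO1- libraries 1 to 5. NEO1- library 4 alone reached into the NEO1+ range, and the log2 fold change was 1.47 (SE 0.46, edgeR adjusted p 0.529). Aurkb, the Aurora B kinase itself, was at 21.0, 14.8, 26.5, 23.4 and 25.6 CPM in NEO1+ libraries and at 0, 0, 0, 7.14 and 6.55 CPM in NEO1- libraries 1 to 5. Every NEO1+ library thus lay above every NEO1- library, 3 of which had no Aurkb count, and the log2 fold change was 3.02 (SE 1.39, edgeR adjusted p 0.750). RefSeq lists a pseudogene, Gm5307 (Aurkb-ps), whose reads could be counted with Aurkb. Cdca8, which encodes borealin, ranged from 22.1 to 46.7 CPM in NEO1+ and from 0 to 22.2 CPM in NEO1- libraries, overlapping by NEO1- library 1 (log2 fold change 1.77, SE 0.86, edgeR adjusted p 0.778).

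Spindle checkpoint genes differed among themselves. Bub1, Ttk and Bub1b had NEO1- libraries at 0, whereas Mad2l1 and Bub3 had counts in every library. Bub1, the kinase that docks checkpoint proteins on the outer kinetochore, was at 11.5, 3.96, 10.4, 9.704 and 1.04 CPM in NEO1+ libraries and had counts in NEO1- library 4 alone, at 2.25 CPM. NEO1+ library 5 lay below that value, so the groups overlapped by this pair. The log2 fold change was 4.01 (SE 1.83, edgeR unadjusted p 0.0472, adjusted p 0.747). Ttk, which encodes the MPS1 kinase that starts checkpoint signalling, was at 4.27, 12.2, 8.25, 5.93 and 5.83 CPM in NEO1+ libraries and again had counts in NEO1- library 4 alone, at 4.01 CPM. The 2 groups met closely but did not overlap, and the log2 fold change was 3.17 (SE 1.80, edgeR adjusted p 0.837). Without NEO1- library 4 the NEO1- values of both genes were all 0, and the fitted log2 fold changes were 10.85 for Bub1 and 10.84 for Ttk, values that depend on the prior count and are no bound.

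Bub1b encodes BUBR1, a part of the complex that inhibits anaphase. It stood at 19.1, 29.6, 25.4, 28.2 and 25.7 CPM in NEO1+ and at 0.86, 0, 0, 10.4 and 14.1 CPM in NEO1- libraries 1 to 5, and the fitted log2 difference was 2.33 (SE 1.21, edgeR adjusted p 0.807). NEO1+ levels were close to each other and all above the NEO1- levels. Mad2l1, whose product MAD2 sequesters CDC20, was present throughout, at 27.7, 25.2, 32.4, 37.6 and 29.3 CPM in NEO1+ and at 9.61, 11.5, 19.9, 17.1 and 28.2 CPM in NEO1- libraries. NEO1- library 5 lay within the NEO1+ range, and the log2 fold change was 0.82 (SE 0.32, edgeR unadjusted p 0.0236, adjusted p 0.633).

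Bub3, the partner of BUB1 and BUBR1 at the kinetochore, had the highest CPM of all members. It was at 178, 138, 132, 130.4 and 121 CPM in NEO1+ and at 149, 115, 135, 104 and 146 CPM in NEO1- libraries. The ranges overlapped broadly, and the log2 fold change was 0.11 (SE 0.14, edgeR adjusted p 0.991). Per kilobase of annotated exon, Bub3 was also the most abundant member, with a mean level of 18.5 CPM per kb in NEO1- libraries, followed by Cenpt at 17.7. The lowest level per kb in NEO1+ was that of Hjurp, at 0.253.

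**Figure D3:**
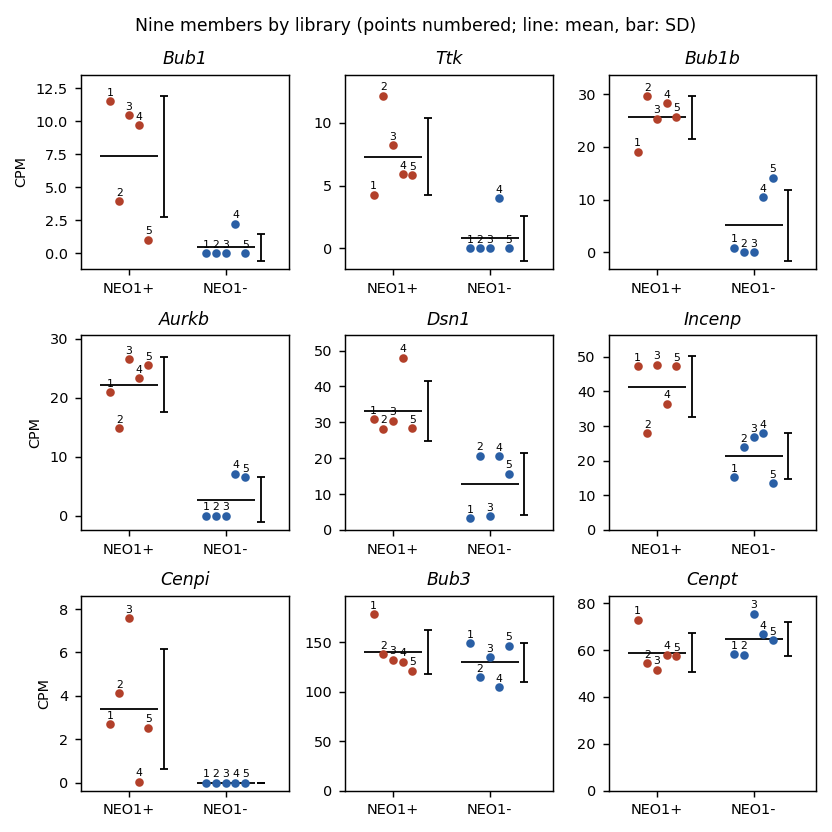
CPM (vertical axes) of 9 members in NEO1+ and NEO1- libraries, with points numbered by library, a line at the group mean and a bar of 1 SD. For Aurkb, Bub1b, Dsn1, Incenp, Ttk and Cenpi all NEO1+ points lie above all NEO1- points, Bub1 overlaps by 1 pair of points, and Bub3 and Cenpt overlap broadly.

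Outer kinetochore genes of the MIS12 complex, the link between inner centromere and microtubule-binding layer, all had positive fold changes, with a median log2 value of 1.37. Dsn1 was at 30.9, 28.2, 30.4, 48.0 and 28.4 CPM in NEO1+ and at 3.31, 20.6, 3.90, 20.6 and 15.6 CPM in NEO1- libraries 1 to 5. All NEO1+ libraries were above all NEO1- libraries, and NEO1- libraries 1 and 3 were lowest. Its log2 fold change was 1.37 (SE 0.50, edgeR unadjusted p 0.0155, adjusted p 0.596). Nsl1 was at 4.71, 1.84, 5.08, 9.31 and 19.5 CPM in NEO1+ libraries, and in NEO1- libraries it was at 0 in 3, at 0.0662 CPM in library 5 and at 4.74 CPM in library 4. The overlap came from NEO1- library 4, and the log2 fold change was 3.06 (SE 1.74, edgeR adjusted p 0.837), or 8.58 without that library. Mis12 itself ranged from 15.8 to 48.2 CPM in NEO1+ and from 11.1 to 38.1 CPM in NEO1- libraries (log2 fold change 0.41, SE 0.41, edgeR adjusted p 0.967).

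The NDC80 complex is the main microtubule coupler, and its 4 genes had log2 fold changes from 0.65 to 2.39. Spc24 was at 21.5, 15.6, 19.6, 29.96 and 23.1 CPM in NEO1+ and at 17.1, 6.88, 17.5, 10.2 and 18.3 CPM in NEO1- libraries. Only NEO1+ library 2 fell inside the NEO1- range (log2 fold change 0.65, SE 0.36, edgeR adjusted p 0.823). Nuf2 was at 13.7, 9.16, 19.6, 30.8 and 6.47 CPM in NEO1+ libraries and at 0, 0, 11.1, 4.10 and 0 CPM in NEO1- libraries. NEO1- library 3 was within the NEO1+ range, and the log2 fold change was 2.39 (SE 1.48, edgeR adjusted p 0.867), or 3.94 without that library. Ndc80 ranged from 4.78 to 30.6 CPM in NEO1+ and from 0 to 14.2 CPM in NEO1- libraries, and Spc25 from 9.51 to 31.9 and from 0 to 16.1 CPM.

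Corona and RZZ genes, which act in chromosome capture and in bringing checkpoint proteins to unattached kinetochores, differed among themselves. Cenpf, a large protein of the corona, was at 20.6, 17.8, 25.2, 46.1 and 12.9 CPM in NEO1+ and at 5.41, 0.0468, 22.5, 0.638 and 0.0662 CPM in NEO1- libraries 1 to 5. NEO1- library 3 alone was within the NEO1+ range, and NEO1- library 4, which led its group for Ttk and Bub1, was near 0. For Cenpf the log2 fold change was 2.10 (SE 1.17, edgeR adjusted p 0.824), or 3.98 without NEO1- library 3. Zw10 stood at 23.96, 31.0, 24.96, 45.9 and 38.4 CPM in NEO1+ and at 7.32, 29.1, 16.2, 25.8 and 38.5 CPM in NEO1- libraries, so that the ranges overlapped (log2 fold change 0.49, SE 0.39, edgeR adjusted p 0.923). Cenpe, the kinetochore-bound kinesin, ranged from 5.17 to 24.1 and from 5.29 to 23.6 CPM, nearly the same span in both groups. Zwilch ranged from 1.49 to 6.63 CPM in NEO1+ libraries and was at 0 in 3 NEO1- libraries, with a highest value there of 8.87 CPM.

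SKA genes, whose products keep kinetochores on shrinking microtubule ends, showed small or scattered differences. Ska2 was at 12.6, 12.9, 16.4, 22.0 and 17.5 CPM in NEO1+ and at 7.99, 12.1, 20.8, 19.2 and 5.66 CPM in NEO1- libraries (log2 fold change 0.31, SE 0.42, edgeR adjusted p 0.995). Ska3 was at 5.38, 0.716, 5.22, 14.6 and 18.5 CPM in NEO1+ and at 7.74, 0, 1.56, 1.73 and 7.05 CPM in NEO1- libraries (1.30, SE 1.18, edgeR adjusted p 0.952). Both overlapped, with NEO1+ library 2 among the lowest values of Ska3. Ska1 was at 1.70 CPM or more in NEO1+ libraries and between 0 and 9.33 CPM in the NEO1- group, and its log2 fold change of 0.14 was -0.54 with genes detected as a covariate and -0.66 without NEO1+ library 3.

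The centromere itself gave a mixed picture. Cenpa, the histone that marks it, was at 48.3, 30.5, 60.1, 19.2 and 19.0 CPM in NEO1+ and at 8.72, 7.12, 33.9, 21.4 and 7.01 CPM in NEO1- libraries 1 to 5. NEO1- libraries 3 and 4 reached into the NEO1+ range, and the log2 fold change was 1.18 (SE 0.51, edgeR unadjusted p 0.0359, adjusted p 0.705). Oip5, a subunit of the MIS18 complex that licenses CENP-A loading, stood at 1.01, 3.45, 7.81, 3.56 and 4.93 CPM in NEO1+ and at 5.41, 4.40, 5.15, 3.83 and 6.32 CPM in NEO1- libraries. It had the most negative log2 fold change of the members, -0.27 (SE 0.80, edgeR adjusted p 0.998), with broad overlap. Hjurp, the chaperone that deposits CENP-A, was low in every library, from 1.26 to 3.17 and from 0.474 to 3.79 CPM (log2 fold change 0.20, SE 1.04).

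Genes of the constitutive centromere-associated network, which stays on centromeres through the cell cycle, had the smallest ratio of summed levels among the 8 functional groups, 1.15. The 10 members tested had a median log2 fold change of 0.46. The median was lower for CENP-A with its loading factors (0.20) and for the SKA genes (0.31). In the network 0 had an unadjusted p under 0.05, against 3.11% of all genes called higher and 3.49% lower, too few genes to read. The summed CPM of the 11 came to 177 ± 29.3 for the NEO1+ group and 154 ± 28.5 for the NEO1- group (SD, n = 5 each). Cenpt, a DNA-binding arm that recruits the NDC80 complex, was at 73.0, 54.3, 51.6, 58.0 and 57.3 CPM in NEO1+ and at 58.2, 58.0, 75.5, 66.8 and 64.3 CPM in NEO1- libraries. It overlapped fully, and the fitted log2 difference was -0.13 (SE 0.16, edgeR adjusted p 0.988). Cenpo was at 18.4, 10.5, 18.6, 32.3 and 12.8 CPM in NEO1+ and at 12.7, 3.42, 25.1, 12.8 and 11.5 CPM in NEO1- libraries (0.50, SE 0.49, edgeR adjusted p 0.962), again with overlap.

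Zeros in NEO1- libraries were also found among other network members, with 2 libraries at 0 for each of Cenpk, Cenpn and Cenpp. Cenpi had the lowest NEO1+ mean of the network, 3.39 CPM, and its separation is not established at this depth. Cenpi was at 2.69, 4.12, 7.58, 0.0304 and 2.53 CPM in NEO1+ libraries, where library 4 held a single count. It had 0 counts in all 5 NEO1- libraries. The NEO1+ mean was 32.1 times the mean of the limits that 3 counts per NEO1- library allow. Those limits cover counting error only, so this ratio is no minimum for the difference in the cells. The low-count filter of edgeR left Cenpi out. Without that filter edgeR gave an adjusted p of 0.42, and DESeq2 gave 5.67e-05. Leaving out 1 NEO1- library, or NEO1+ library 4, gave edgeR adjusted p values from 0.283 to 0.449. Cenpk, which sits in one subcomplex with the products of Cenph, Cenpi and Cenpm, was at 10.1, 3.56, 8.86, 15.6 and 6.94 CPM in NEO1+ and at 0, 0, 7.38, 7.51 and 0.43 CPM in NEO1- libraries. NEO1- libraries 3 and 4 lay within the NEO1+ range (log2 fold change 1.55, SE 1.39, edgeR adjusted p 0.952).

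The other network members overlapped between groups. Cenph ranged from 5.09 to 16.6 CPM in NEO1+ and from 0 to 16.4 CPM in NEO1- libraries, and Cenpm from 6.05 to 16.8 and from 4.53 to 16.3 CPM. Cenpn ranged from 3.92 to 9.77 CPM in NEO1+ libraries, and in NEO1- libraries it was at 12.8 CPM in library 2 and at 0.973 CPM or less in the rest. Cenpl ranged from 10.1 to 26.9 and from 1.46 to 38.4 CPM, and Cenpp from 0.0512 to 9.86 and from 0 to 6.26 CPM. For Cenpq the ranges were 15.7 to 36.8 and 11.2 to 38.8 CPM, and for Cenpw 5.25 to 11.6 and 3.54 to 9.51 CPM.

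**Figure D4:**
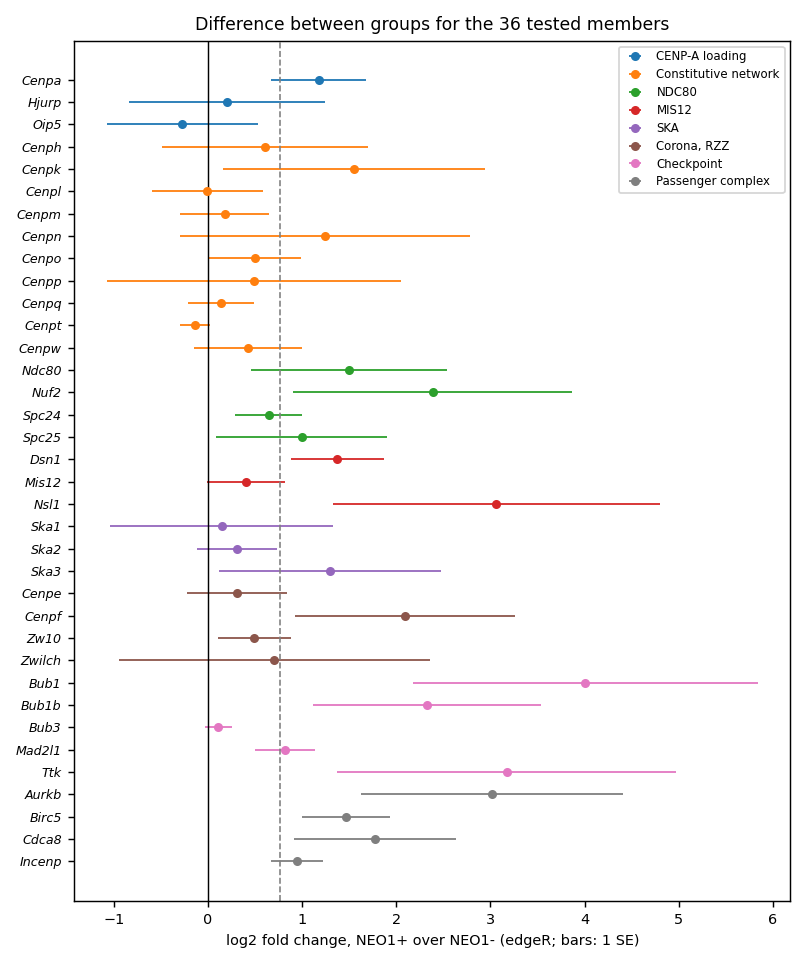
Fitted log2 fold change of NEO1+ over NEO1- (horizontal axis, edgeR, bars of 1 SE) for the 36 tested members (vertical axis), coloured by functional group, with a dashed line at their median of 0.76 and a solid line at 0. Points of the passenger complex lie right of 0 by more than 1 SE, whereas most of the constitutive network lies within 1 SE of 0.

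**Figure D5:**
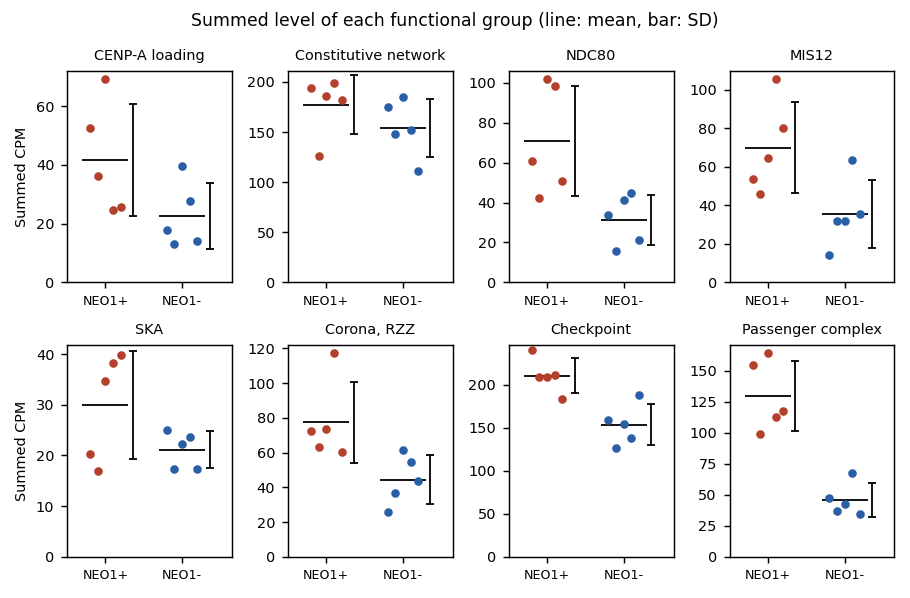
Summed CPM (vertical axes, from 0) of the members of each functional group in each library, with a line at the mean and a bar of 1 SD. The passenger complex is the group of genes without overlap, 98.7 to 164 CPM in NEO1+ against 34.6 to 67.9 CPM in NEO1- libraries.

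Other genes of the kinetochore were read from a list of 28, of which 27 were tested. In the edgeR fit 19 had a positive and 8 a negative log2 fold change, with a median of 0.43, and 0 passed an adjusted p of 0.05. At an unadjusted p under 0.05, 2 were higher, against 3.11% of all genes, and 2 lower, against 3.49%. Cdc20, the anaphase activator held by the checkpoint, was at 47.5, 36.4, 57.3, 56.8 and 30.2 CPM in NEO1+ and at 21.9, 6.60, 14.9, 22.7 and 2.15 CPM in NEO1- libraries, without overlap (log2 fold change 1.74, SE 0.51, edgeR adjusted p 0.451). Mad1l1, which holds MAD2 at the kinetochore, ranged from 26.0 to 57.2 and from 21.5 to 34.3 CPM (0.62, SE 0.27, edgeR adjusted p 0.721). Sgo1, the protector of centromeric cohesin, ranged from 3.98 to 15.4 CPM in NEO1+ libraries and was at 0 in 3 NEO1- libraries and at most 3.08 CPM in the others (3.25, SE 1.601, edgeR adjusted p 0.785). In the other direction Mis18a, a partner of the Oip5 product, ranged from 18.6 to 41.3 CPM in NEO1+ and from 29.1 to 61.2 CPM in NEO1- libraries (-0.58, SE 0.27, edgeR adjusted p 0.747). Rangap1 (-0.48, SE 0.22, edgeR adjusted p 0.750) and Cenpx (-0.26, SE 0.21, edgeR adjusted p 0.923) also had lower means in NEO1+ libraries.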

How the data were processed

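Each library was made by Smart-seq2 from sorted cells, with oligo-dT priming and 18 PCR cycles and no molecular identifiers, per the labels' protocols. The authors deposited raw counts per gene symbol, and a table of log2 values; each of the deposited log2 values equalled log2 of a count over 1 size factor per library plus 1, and the residuals were at most 5.2e-14. The submitters' processing notes name bcl2fastq 2.18, STAR 2.4, DESeq2 1.22.2 and build mm10 without their roles; the counting tool, annotation and use of strand are not given in the sources used here, so reads of overlapping or antisense genes cannot be told apart.

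Counts were tested with edgeR 4.0.16 in R 4.3.3 with a robust quasi-likelihood fit on group alone, after TMM scaling and filterByExpr, which kept 12203 genes, 36 of the 37 members among them. Adjustment was Benjamini-Hochberg over all genes tested, with a threshold of 0.05. The SE was taken as the absolute log2 fold change divided by the root of the F statistic. A fitted fold change of a gene with zeros depends on edgeR's prior count. Alternatives used DESeq2 1.42.0, limma 3.58.1, the replicate number as a block and single libraries left out. Exon lengths are unions of GENCODE M21 exons. The members and lists were chosen with earlier results of these data known. Values in every library are given for the 2 members of smallest p in each of 8 functional groups and for the 3 of highest mean CPM; Aurkb, Ttk, Bub1b and Cenpi were added after their values were seen, as were the promoters printed for members without overlap. No 2 libraries of a group agreed within sampling noise (chi-square per degree of freedom at least 83.1). The result of 1 marker list is not reported here.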

Additional observations from a re-analysis of the deposited data

Results flagged for a closer look

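In groups of 5 libraries, a library was singled out where its gap to the nearest other value, over the range of the group, exceeded Dixon's 95% critical value of 0.71. Of 76 groups of values checked (each member in both groups, the number of members detected and their summed CPM), 8 were singled out. Normally distributed values would give about 3.8, but values tied at 0 counts are not normal, so 3.8 is no chance number here. For Bub1 and Ttk all NEO1- libraries but library 4 were tied at 0, which fixes the ratio at 1. The scale is log2 CPM after adding a prior count of 2, where a count of 0 lies at -3.98. NEO1- library 4 stood above the other NEO1- libraries for Bub1 (1.21, against -3.98 in each of the others), Ttk (2.03, against -3.98) and Nsl1 (2.26, against -3.98 to -2.95). Low values without a count were those of Spc25 in NEO1- library 5 (-3.98, against 2.71 to 4.02), Ska1 in NEO1- library 3 (-3.98, against 1.42 to 3.23) and Cdca8 in NEO1- library 3 (-3.98, against 2.70 to 4.48). NEO1+ library 4, the library with the lowest Neo1 level of its group, stood apart for Cenpi with 1 count (-3.41, against 1.37 to 2.93) and for Dsn1 with a high value (5.59, against 4.82 to 4.95).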

How the results depend on the processing

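The log2 fold changes of 36 members under 19 alternatives gave 684 values, of which 647 kept their direction and their side of the threshold, 13 passed it and 24 changed sign; 27 members had no change of sign. Across all genes the calls numbered 146 in DESeq2, 742 when DESeq2 had the replicate block, 2 with limma-voom, 1 with limma-trend on the deposited log2 values, 2 without the low-count filter and 0 to 1 with single libraries left out. Members called numbered 1 in DESeq2 and 14 when it had the replicate block (4.43% of genes were called higher there), and 0 with single libraries left out. Members at an unadjusted p under 0.05 and higher, 7 in the main fit, numbered 12 with the replicate block in edgeR (4.29% of genes), 18 with the block in DESeq2 (10.2%), 16 with limma-voom (7.51%), 16 with limma-trend (6.01%), 2 with genes detected as a covariate (1.36%) and 4 to 10 with single libraries left out (2.27 to 4.45%). Their median log2 fold change was 1.37 with the replicate block in edgeR and in DESeq2, 1.42 with limma-voom, 1.47 with limma-trend and 0.69 to 0.91 with single libraries left out. For the 28 other kinetochore genes the count, 2 in the main fit, was 4 with DESeq2 (4.85% of genes), 5 and 9 with the block in edgeR and DESeq2 (4.29 and 10.2%), 8 with limma-voom (7.51%), 6 with limma-trend (6.01%) and 1 to 4 with single libraries left out (2.27 to 4.45%). Among the sign changes Cenpl was at 0.31 with the block in edgeR and in DESeq2, 0.50 with limma-voom, 0.49 with limma-trend, 0.28 with the covariate and -0.31 to 0.36 with single libraries left out. Ska1 was at -0.12 with the block in both tools, -0.54 with the covariate and -0.66 to 0.63 with single libraries left out. With the covariate Cenpe was at -0.081, Cenpp at -2.37, Mis12 at -0.15 and Zw10 at -0.061. With single libraries left out Cenpq ran from -0.039 to 0.39, Hjurp from -0.0425 to 0.65 and Cenpm from -0.022 to 0.36. The cause of these shifts was not tested. Equal replicate numbers are not said to mark shared mice, so the numbers were not taken to pair libraries. Deviations from the group means correlated at 0.004 to 0.0359 between same-numbered libraries, against a mean of -0.0042 between libraries of different numbers. Every same-number value lay above that mean, though not every library correlated best with its own number. Values this small cannot settle whether numbers mark shared pools, and the block moved the members called by DESeq2 from 1 to 14. The 39 of 185 NEO1- values at 0 were not confined to the lowest members. Cdca8 had 0 counts in NEO1- library 3 and 194 to 698 in the other NEO1- libraries. Spc25 had 0 in NEO1- library 5 and 138 to 531 in the others. With all libraries thinned to the smallest total the NEO1- mean of members detected stayed at 29.2. The 3-count floor covers counting error only, so it does not bound the level in the cells.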

Other observations

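Mitotic genes outside the kinetochore were read from a list of 22, all tested. In the edgeR fit all 22 log2 fold changes were positive, with a median of 1.53, and 6 had an unadjusted p under 0.05, against 3.11% of all genes; 0 passed adjustment. Cdk1, the kinase that drives mitotic entry, averaged 49.8 CPM over NEO1+ libraries against 15.4 CPM over NEO1- libraries (log2 fold change 1.69, edgeR adjusted p 0.155). Mki67, the proliferation marker, was at 46.5 and 11.3 CPM (2.04, edgeR adjusted p 0.548), whereas Aurka, the spindle pole kinase, was at 15.1 and 14.3 CPM (0.08, edgeR adjusted p 0.998). These 3 genes, and Mcm4 among the replication genes, were chosen after their values were seen.

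DNA replication genes, a list of 25 with all tested, had 23 positive log2 fold changes and a median of 0.53, with 10 at an unadjusted p under 0.05 and higher, against 3.11% of all genes. Mcm4, a subunit of the replicative helicase, averaged 101 CPM over NEO1+ libraries against 54.3 CPM over NEO1- libraries (log2 fold change 0.90, edgeR adjusted p 0.248). The medians of these lists and of the kinetochore genes are given side by side and were not tested against each other.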
